A study of Mus musculus with 9 samples.

Results

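The cytohesins Cyth1, Cyth2, Cyth3 and Cyth4 and the ADP-ribosylation factors (ARFs) Arf1, Arf3, Arf4, Arf5 and Arf6 were examined in splenic monocytes by RNA sequencing. These 9 genes were selected by symbol from the 46072 genes of the deposited tables, and each symbol matched 1 row. Cyth1 was placed first because it differed in these same libraries, and its values are therefore given as a description with no test. All 9 genes had values well above 0 in all 9 libraries.

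All mice were female C57BL/6 mice, and each group comprised 3 libraries. The Con group received 2 oral gavages of water a day for 6 days. The Van group was gavaged on the same schedule with vancomycin, a glycopeptide antibiotic poorly absorbed from the intestine, in a daily dose of 2 mg. The VanLip group received the same vancomycin gavage and then L654, a lipid of Bacteroidota, by retro-orbital injection on days 7, 9 and 11. The L654 used was purified from Porphyromonas gingivalis. Gavage was followed in all groups by a rest of 8 days without antibiotic, the upper end of the 6 to 8 days that the labels give. Monocytes were enriched from the spleen by magnetic removal of other cells, with no sort on a monocyte marker, and were not stimulated before lysis. Each group was made up of 3 mice. The study's methods describe injections of vehicle or L654 after gavage, but its account of the sequenced mice gives an injection for VanLip alone. Whether the sequenced Con and Van mice received vehicle is therefore unclear. If they did not, L654 and the injection itself cannot be told apart. With 1 library per mouse, p-values measure the spread between these few mice.

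Cytohesins are guanine nucleotide exchange factors: their Sec7 domain loads ARFs with GTP, and their pleckstrin homology domain binds phosphoinositides and so brings them to membranes. Cyth1 is known in leukocytes for binding the cytoplasmic tail of the integrin β2 chain, and through it for integrin-dependent adhesion. ARFs are small GTPases that in the GTP-bound state recruit coat proteins and lipid-modifying enzymes. Arf1 and Arf3 belong to class I and Arf4 and Arf5 to class II, which act mainly at the Golgi and the compartments next to it, whereas Arf6, of class III, acts at the plasma membrane and on endosomes.

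Summed expected counts were 43070361 to 61383806 for each of the Con and Van libraries and 170503470 to 184720704 for each VanLip library. If the counts were made with the default read length of tximport, the commonest low count corresponded to a read of 100 bases in Con and Van and of 150 bases in VanLip, whereas the study's methods state 1 read length, so that this size, depth and group cannot be told apart in any difference that involves VanLip. All 12 monocyte markers examined were at 1 FPKM (fragments scaled to transcript length and to the mapped fragments of the library) or more in every library, and their summed level was 10866 to 11424 FPKM in Con, 9756 to 11158 in Van and 10940 to 12379 in VanLip. Most of that sum was Lyz2, at 6428 to 9154 FPKM over the 9 libraries. Ccr2, the receptor by which monocytes leave the bone marrow, was 173.4, 163.2 and 158.6 FPKM in Con, 70.4, 93.0 and 98.2 FPKM in Van and 256.3, 156.1 and 190.3 FPKM in VanLip. All 6 NK cell markers stayed below 1 FPKM, as did 5 of 8 T cell markers, among them Cd3e, while Cd4 was 4.85 to 11.0 FPKM. Of the 7 neutrophil markers, 3 stayed below 1 FPKM, with Ly6g at 0, and Mmp8 was 10.5 to 33.8 FPKM. The 7 erythroid markers summed to 99.7 to 202.7 FPKM in Con, 342.8 to 772.1 in Van and 278.6 to 1163 in VanLip. For Van against Con, 5 erythroid and 1 of 7 red pulp macrophage markers were called higher by DESeq2, and 1 monocyte, 1 of 4 plasma cell and 3 of 7 dendritic cell markers lower. For VanLip against Con, all 7 erythroid markers were called higher, and 2 dendritic cell markers and 1 neutrophil marker lower. For VanLip against Van, 3 monocyte, 2 dendritic cell and 1 plasma cell markers were called higher and 1 red pulp macrophage marker lower. The part of these cells' RNA in the differences below was not tested. In such bulk samples, fewer cells of a type and less RNA per cell cannot be told apart.

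The ARFs are close relatives, and the stretch of coding sequence around their nucleotide-binding loop is shown because it illustrates how far reads of one member can be told from those of another. Each stretch holds 81 coding bases, or 27 codons, read from the GENCODE M21 transcripts in the sense direction, and capitals mark bases that differ from Arf1.
Arf1: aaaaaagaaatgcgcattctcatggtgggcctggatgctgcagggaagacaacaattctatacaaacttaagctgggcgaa
Arf3: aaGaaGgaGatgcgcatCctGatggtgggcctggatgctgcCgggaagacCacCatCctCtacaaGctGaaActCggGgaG
Arf4: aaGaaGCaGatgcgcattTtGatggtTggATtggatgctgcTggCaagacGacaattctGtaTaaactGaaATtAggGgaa
Arf5: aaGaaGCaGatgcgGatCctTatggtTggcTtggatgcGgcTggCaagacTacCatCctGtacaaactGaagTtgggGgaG
Arf6: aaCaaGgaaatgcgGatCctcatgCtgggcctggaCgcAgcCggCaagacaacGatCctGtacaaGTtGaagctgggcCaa

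Arf3 differed from Arf1 at 16 of these bases, all of them at the third codon position, so that both encode the same residues here. Arf4 differed at 19 bases, Arf5 at 20 and Arf6 at 16, and in each of these 3 genes some codons encode another residue. Over the whole coding sequence, identity was highest between Arf1 and Arf3, at 83.6%, followed by Arf4 and Arf5 at 78.7%, and lowest between Arf4 and Arf6 at 61.4%. Cyth1 was 76.9% identical to Cyth2, 75.7% to Cyth3 and 70.7% to Cyth4. No member shared a stretch of 100 bases with another member, so that a read of that length matching without error could be assigned to a single member. The main transcript of Cyth2 shared 120 of its 2428 windows of 100 bases with the gene model Gm45444, which is the largest such share among the 9 genes, and Cyth2 is uncertain to that extent.

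Cyth1 (ENSMUSG00000017132) lies on chromosome 11 of GRCm38 between positions 118132019 and 118248592, on the minus strand. RefSeq lists 3 start sites for it, and the most upstream one lies in sequence rich in CG dinucleotides. The 216 bases before the annotated gene at that site are printed from RefSeq (GRCm38.p6, chr11:118248593-118248808, minus strand), with the 24 CG pairs in capitals, because the longest annotated transcripts start beside it.
Cyth1 upstream: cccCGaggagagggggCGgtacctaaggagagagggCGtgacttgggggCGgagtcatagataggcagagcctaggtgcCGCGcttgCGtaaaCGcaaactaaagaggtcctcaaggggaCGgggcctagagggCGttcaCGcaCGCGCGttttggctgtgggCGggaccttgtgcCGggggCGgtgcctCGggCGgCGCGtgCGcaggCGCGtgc

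The 300-base window of this start site held 35 CG pairs, against 8 and 4 in the windows of the other Cyth1 start sites and a median of 7 over 32851 RefSeq promoter windows. Of the 9 genes, 8 matched at least 1 of these windows, 12 windows in all, and Arf6 matched none. None of the 12 held GAANNTTC, a pair of the units that heat shock factors bind, which occurred in 7.86% of all windows, or TGACGTCA, the cAMP response element, which occurred in 1.79%. With shares this low, the lack of a match in 12 windows does not set these genes apart. Other arrangements of the heat shock units were not searched. Both motifs read the same on either strand, and neither contains the other. Gene totals do not separate the 3 start sites, so that the values below are sums over them. The snRNA Gm24060 and the processed pseudogene Gm11737 lie within Cyth1 on the same strand, with mean expected counts of 34.1 and 53.4 per library.

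Cyth1 was higher in Van than in Con and lower in VanLip than in either. Its level was 34.3, 33.2 and 35.4 FPKM in the Con libraries, 53.5, 50.9 and 50.5 FPKM in the Van libraries and 31.1, 29.9 and 28.6 FPKM in the VanLip libraries. The lowest Van library lay above every Con and VanLip library, and the highest VanLip library lay below the lowest Con library, so that the 3 groups did not overlap. The mean was 34.3 ± 1.10 FPKM in Con, 51.6 ± 1.64 FPKM in Van and 29.9 ± 1.25 FPKM in VanLip (SD, n = 3 each). On the scale of normalized counts, the fitted log2 fold change was 0.58 (SE 0.06) for Van against Con, a fold of 1.49. It was -0.81 (SE 0.06) for VanLip against Van and -0.23 (SE 0.06) for VanLip against Con. The comparisons share libraries, so that the rise in Van and the lower value in VanLip against Van are not independent of each other.

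**Figure D1:**
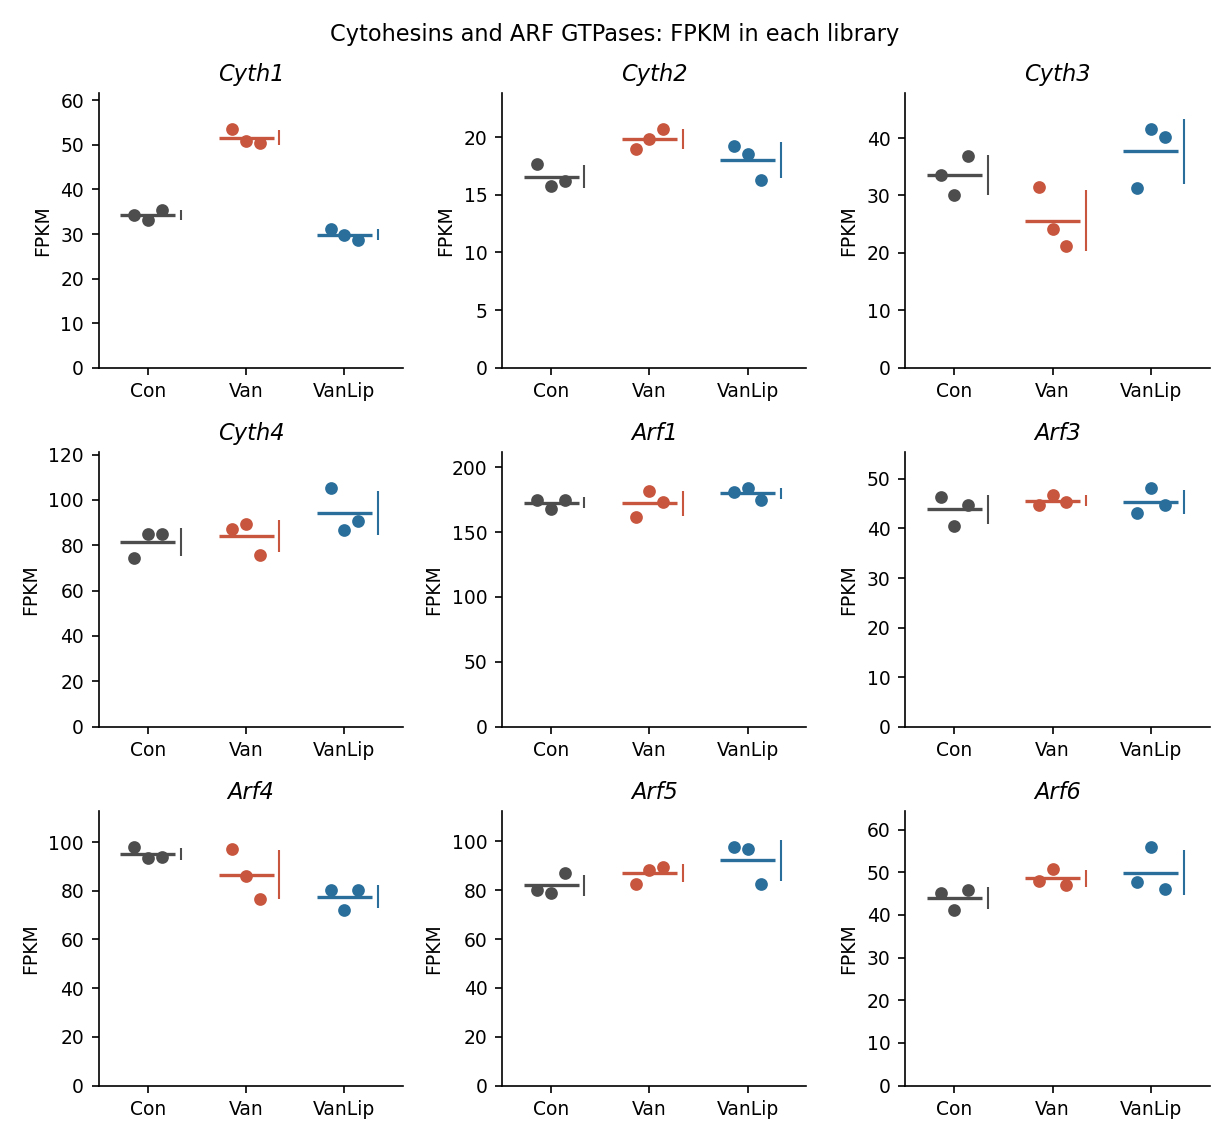
FPKM of the 9 genes in each library, 1 panel per gene, with points for the libraries, a horizontal line for the group mean and a vertical bar for the SD (n = 3). The 3 Cyth1 groups are separate, with Van between 50.5 and 53.5 FPKM, whereas the Arf1 libraries lie between 162.0 and 183.8 FPKM in all groups.

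Cyth3 was higher in VanLip than in Van and was not called in the other comparisons. Its level was 33.7, 30.1 and 36.9 FPKM in Con, 31.5, 24.2 and 21.1 FPKM in Van and 31.2, 41.5 and 40.3 FPKM in VanLip. The first Van library lay within the Con range and just above the first VanLip library, so that the groups overlapped, while the other 2 Van libraries lay below all others. For VanLip against Van, Cyth3 had a log2 fold change of 0.56 (SE 0.15) and an adjusted p of 0.00457 with DESeq2. Without the second Van library the value was 0.50 and the adjusted p was 0.0541, and edgeR gave an adjusted p of 0.0597, so that the call rests on that library and on the test. For Van against Con the log2 fold change was -0.41 (SE 0.15), with an adjusted p of 0.105. Without the first Van library, it was -0.60 with an adjusted p of 0.000565, and in a DESeq2 fit of Con and Van alone the adjusted p was 0.0328. The VanLip and Con libraries differed by 0.15 on the log2 scale (95% interval -0.15 to 0.45, adjusted p = 0.671), and by 0.080 without the second, 0.099 without the third and 0.26 without the first VanLip library, or 0.085 without the second Con library.

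Cyth2 had the lowest level of the 9 genes in each group. It measured 17.7, 15.8 and 16.2 FPKM in Con, 18.9, 19.8 and 20.7 FPKM in Van and 19.3, 18.5 and 16.3 FPKM in VanLip. All Van libraries lay above all Con libraries, and the VanLip libraries overlapped both groups in FPKM. The log2 fold change for Van against Con was 0.27 (SE 0.09), with an unadjusted p of 0.00364 and an adjusted p of 0.0715 with DESeq2. In a DESeq2 fit of Con and Van alone the adjusted p was 0.0214, so that the call depends on whether the VanLip libraries are in the fit. VanLip differed from Van by -0.16 (95% interval -0.33 to 0.02, adjusted p = 0.320) and from Con by 0.11 (95% interval -0.07 to 0.29, adjusted p = 0.578). Without the third VanLip library these values were -0.090 and 0.18, and without the first VanLip library the difference from Con was 0.058.

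Cyth4, a cytohesin found mainly in blood cells, had the highest level of the family. It ranged from 74.5 to 85.0 FPKM in Con, from 75.9 to 89.2 FPKM in Van and from 86.9 to 105.1 FPKM in VanLip. The VanLip libraries lay above the Con libraries in FPKM, but the normalized counts of these groups overlapped. With DESeq2, the log2 difference was 0.19 (SE 0.10, adjusted p = 0.284) for VanLip against Con and 0.03 (SE 0.10, adjusted p = 0.957) for Van against Con. The difference between VanLip and Con was 0.097 without the first VanLip library.

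Summed over the 4 cytohesins, the level was 165.9 ± 6.84 FPKM in Con, 181.1 ± 11.7 FPKM in Van and 179.8 ± 5.98 FPKM in VanLip (SD, n = 3 each). Cyth1 made up 20.7% ± 0.656 of that sum in Con, 28.6% ± 1.28 in Van and 16.6% ± 0.319 in VanLip. Cyth4 contributed the largest share, with group means between 46.4% and 52.4%. The ratio of Cyth1 to Cyth3 in FPKM, a measure chosen after the values were seen, was 1.02, 1.10 and 0.958 in Con, 1.70, 2.1 and 2.39 in Van and 0.996, 0.719 and 0.710 in VanLip. Each Van library was above every Con and VanLip library in this ratio, which like the shares uses the Cyth1 values that led to its selection and is a description.

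**Figure D2:**
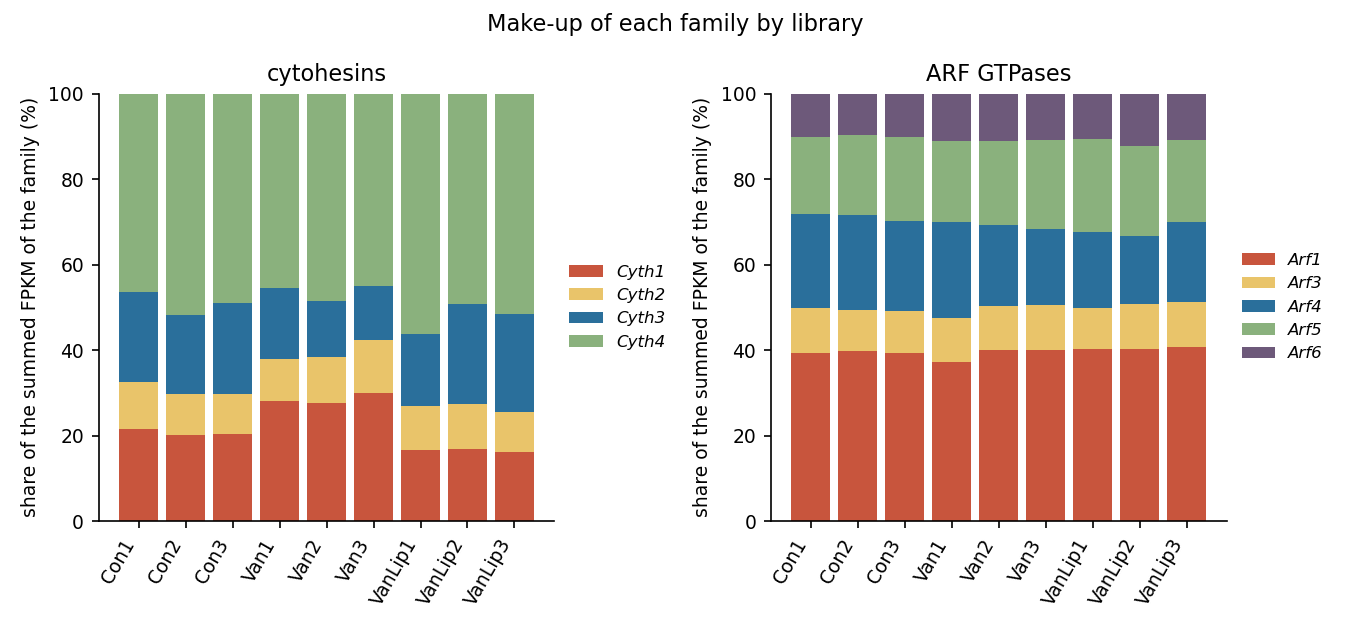
Share of each member in the summed FPKM of its family, in percent, for each library, with cytohesins on the left and ARFs on the right. Cyth1 takes 27.6% to 30.0% of the cytohesin sum in the Van libraries, and Arf1 takes 37.3% to 40.8% of the ARF sum in all 9 libraries.

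The summed level of the 5 ARFs was 437.7 ± 13.6 FPKM in Con, 439.9 ± 11.6 FPKM in Van and 444.8 ± 14.7 FPKM in VanLip (SD, n = 3 each). Arf1, which recruits the COPI coat to the Golgi, was the most abundant of the 9 genes, at 172.7 ± 4.02 FPKM in Con, 172.2 ± 9.77 FPKM in Van and 179.8 ± 4.55 FPKM in VanLip. Its ranges overlapped between all groups, and the 95% interval of its log2 fold change for Van against Con was -0.12 to 0.10. Arf3, its class I relative, ranged from 40.6 to 48.1 FPKM over the 9 libraries, and its log2 fold changes lay between -0.01 and 0.04, with a direction that changed with the library scaling or the library left out. The adjusted p was 0.676 or above for both genes in each comparison with DESeq2.

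Arf4, a class II member, was the ARF with the largest fitted difference. Its level was 97.9, 93.3 and 93.8 FPKM in Con, 97.0, 86.0 and 76.7 FPKM in Van and 80.2, 72.2 and 80.2 FPKM in VanLip. All VanLip libraries lay below all Con libraries, and the Van libraries spanned both groups. The log2 fold change for VanLip against Con was -0.23 (SE 0.09), with an unadjusted p of 0.0147 and an adjusted p of 0.131 with DESeq2. Its share of the ARF sum was 21.7% ± 0.611 in Con, 19.7% ± 2.36 in Van and 17.5% ± 1.5 in VanLip. Arf4 is overlapped on the opposite strand by Pde12, which had a mean expected count of 3438. The libraries were made with a stranded kit, but whether strand was used in counting is not stated, so that reads of the overlapped part may be shared.

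Arf5, the other class II member, ranged from 79.0 to 87.1 FPKM in Con, from 82.7 to 89.7 FPKM in Van and from 82.4 to 97.6 FPKM in VanLip. Its log2 fold change was 0.16 (SE 0.08, adjusted p = 0.295 with DESeq2) for VanLip against Con, and 0.23 with an adjusted p of 0.0189 without the third VanLip library. It was 0.10 without the first VanLip library. Arf5 lies within Gcc1, which is on the opposite strand and had a mean expected count of 2674.

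Arf6, the plasma membrane ARF that cytohesins also load with GTP, measured 45.1, 41.1 and 45.9 FPKM in Con, 48.0, 50.6 and 46.9 FPKM in Van and 47.6, 55.8 and 46.2 FPKM in VanLip. Each Van and VanLip library lay above every Con library in FPKM, but the normalized counts of VanLip and Con overlapped. The log2 fold change was 0.13 (SE 0.08, adjusted p = 0.520) for Van against Con and 0.16 (SE 0.08, adjusted p = 0.276) for VanLip against Con with DESeq2. Without the second VanLip library, VanLip differed from Con by 0.081, and without the second Con library Van differed from Con by 0.086. For VanLip against Van the value was 0.03 (95% interval -0.13 to 0.19). Reads of Arf6 may be shared with the opposite-strand gene Gm9887, which had a mean expected count of 174.7.

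Of the 8 members other than Cyth1, 0 passed an adjusted p of 0.05 for Van against Con, where 4.33% of the 18526 genes tested were called. At an unadjusted p under 0.05 there were 2 members, Cyth2 and Cyth3, against 11.1% of all genes, and edgeR and limma each gave 0 called members and 2 at an unadjusted p under 0.05. VanLip against Con also gave 0 called members with DESeq2, edgeR and limma, where DESeq2 called 6.67% of all genes. In that comparison Arf4 alone had an unadjusted p under 0.05 with DESeq2, against 13.0% of all genes, while edgeR gave 2 such members and limma 1. For VanLip against Van, 1 member, Cyth3, was called by DESeq2, where 9.85% of all genes were called, and edgeR and limma each called 0. At an unadjusted p under 0.05 there was 1 member with DESeq2, against 15.5% of all genes, 1 with edgeR and 2 with limma.

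The normalized counts of 2 of these 8 members, Cyth2 and Arf6, did not overlap between Van and Con, against 24.1% of the 13503 genes whose normalized counts averaged 50 or more. Between VanLip and Con, only Arf4 of the 8 did not overlap, against 24.5% of those genes, and between VanLip and Van only Cyth2 did not overlap, against 28.6%. These shares of members lie near the background or below it.

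**Figure D3:**
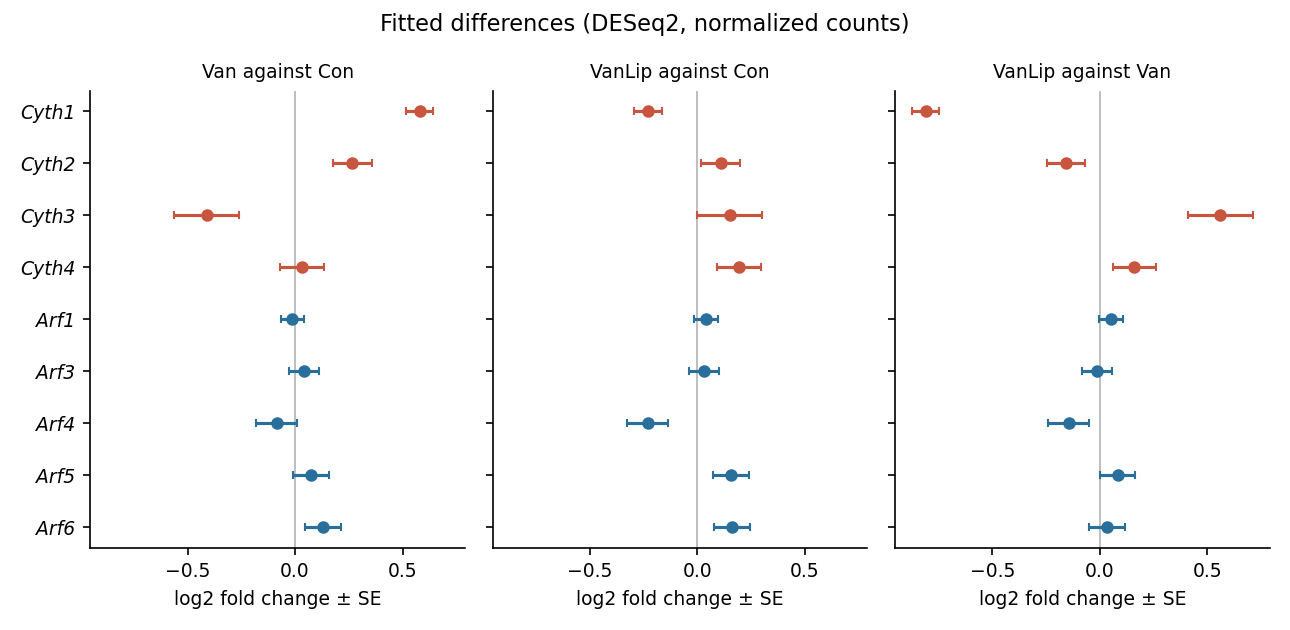
Fitted log2 fold change of each gene with its standard error in each of the 3 comparisons, from normalized counts. Cyth1 lies at 0.58, -0.23 and -0.81 and Cyth3 at -0.41, 0.15 and 0.56, whereas the 5 ARFs lie between -0.23 and 0.16.

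Ordered by mean FPKM, Arf1 was highest and Cyth2 lowest in each group. In Con the order below Arf1 was Arf4, Arf5, Cyth4, Arf6, Arf3, Cyth1 and Cyth3, and the neighbours Arf5 and Cyth4, Arf6 and Arf3, and Cyth1 and Cyth3 overlapped over the libraries. In Van, Cyth1 came directly after Cyth4, overlapping Arf6 and above all Arf3 and Cyth3 libraries. In VanLip, it came directly before Cyth2, below all Cyth3 libraries and above all Cyth2 libraries.

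The genes whose pattern was most like that of Cyth1 over the 9 libraries, by Pearson's r of log2 (normalized count + 1) among 13503 genes, were Gm15542 (0.985), Dnaja1 (0.984), Gm6335 (0.983), Gramd1b (0.983) and Slc25a33 (0.982). Dnaja1, a co-chaperone of the heat shock protein Hsp70, measured 41.2 ± 2.05 FPKM in Con, 62.5 ± 1.86 FPKM in Van and 30.5 ± 0.811 FPKM in VanLip (SD, n = 3 each). Gm15542 and Gm6335 are annotated as processed pseudogenes, whose reads can be shared with a parent gene. Among the members, r with Cyth1 was 0.65 for Cyth2 and -0.77 for Cyth3, and it lay between -0.46 and 0.34 for the others. These values are descriptions, since the 9 points fall into 3 groups and share their libraries. Within groups, after each group mean was subtracted, the leading genes were Ankrd44 (0.973), Taok3 (0.966), Plbd2 (0.966), Rnf217 (0.963) and Fam120a (0.962), so that other genes led once the group differences were removed.

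Other genes of the ARF pathway were taken from 6 lists holding 104 genes, of which 101 received an adjusted p in each comparison. For Van against Con 6 of the 101 were called by DESeq2, 3 higher and 3 lower, which is 5.94% against 4.33% of all genes (2.27% higher and 2.06% lower). Agap3 and Arap3, GTPase-activating proteins that return ARFs to the GDP-bound state, were higher in Van by 0.43 (adjusted p = 0.000596) and 0.40 (adjusted p = 0.0377) on the log2 scale. Ap3d1, a subunit of the AP-3 adaptor complex that ARF recruits, was higher by 0.22 (adjusted p = 0.00809).

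Lower in Van were Copg2, a subunit of the COPI coat, with a log2 fold change of -0.26 (adjusted p = 0.00672), and Rab11fip4, an effector that binds Rab11 and ARFs, with -0.79 (adjusted p = 1.98e-07). The ARF-like gene Arl14 was also lower, at -1.68 (adjusted p = 0.033), but its mean was only 0.463 FPKM in Con and 0.149 FPKM in Van. Rab11fip4 was 1.95 ± 0.033 FPKM in Con, 1.20 ± 0.212 FPKM in Van and 1.66 ± 0.0988 FPKM in VanLip (SD, n = 3 each). The count of 6 fell to 2 with edgeR and to 1 with limma on log2 (FPKM + 1), and to 2 without the first Con or the second Van library.

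For VanLip against Con, 5 of the 101 were called by DESeq2, 2 higher and 3 lower, which is 4.95% against 6.67% of all genes (2.98% higher and 3.69% lower). Smap1, an ARF GTPase-activating protein, and Arf2, a class I ARF, were higher in VanLip by 0.23 (adjusted p = 0.0489) and 0.26 (adjusted p = 0.0391) on the log2 scale. Lower were Iqsec2, an exchange factor for ARFs, at -0.27 (adjusted p = 0.0212), Ap1g1, a subunit of the AP-1 adaptor, at -0.18 (adjusted p = 0.0268), and Frmd4a, a scaffold that binds cytohesins, at -0.42 (adjusted p = 0.0176). Frmd4a measured 12.8 ± 1.06 FPKM in Con, 11.8 ± 1.46 FPKM in Van and 8.93 ± 1.31 FPKM in VanLip (SD, n = 3 each). The count of 5 was 0 with edgeR and with limma, and 0 without the second VanLip library. It was 1 without the second Con or the second Van library, 2 without the first Con, the third Con or the first VanLip library, and 3 without the third Van library.

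For VanLip against Van, 7 of the 101 were called by DESeq2, 3 higher and 4 lower, which is 6.93% against 9.85% of all genes (4.58% higher and 5.27% lower). Copg2 (0.20, adjusted p = 0.0283), Rab11fip4 (0.53, adjusted p = 0.000638) and Arl10 (0.39, adjusted p = 0.0148) were higher in VanLip on the log2 scale. Lower were Iqsec1, an exchange factor for ARFs, at -0.28 (adjusted p = 0.00668), Ap3d1 at -0.17 (adjusted p = 0.0329), Mapk8ip3, a scaffold for motor proteins that binds Arf6, at -0.23 (adjusted p = 0.00488), and Arl13b, an ARF-like GTPase of cilia, at -0.40 (adjusted p = 0.000647). Copg2 and Rab11fip4 were thus called lower in Van than in Con and than in VanLip, and Ap3d1 was called higher in Van than in either. These comparisons share the Van libraries and are not independent. With edgeR 2 of the 101 were called and with limma on log2 (FPKM + 1) also 2, and the count was 4 without the first Van library and 3 without the second.

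**Figure D4:**
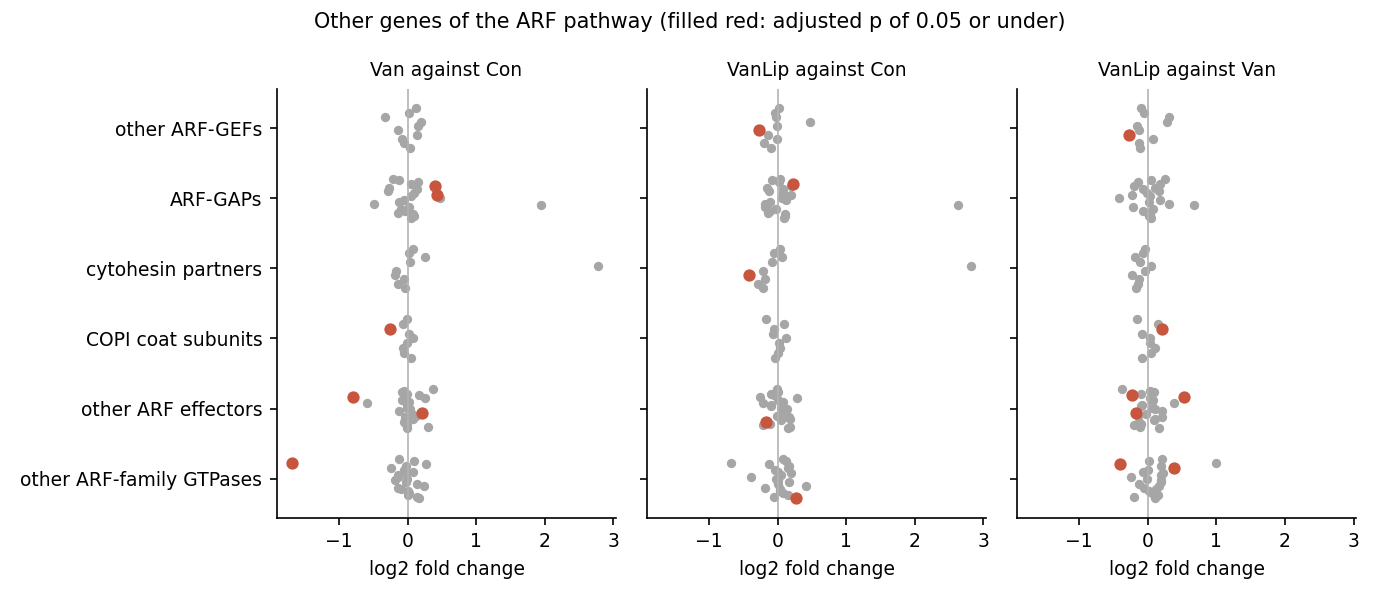
Log2 fold change of each listed gene of the ARF pathway with an adjusted p in the 3 comparisons, by list, with red points for called genes. The called genes number 6, 5 and 7 from left to right, and most points lie near 0.

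The median log2 fold change over the 101 genes was -0.01, 0.00 and 0.02 in the 3 comparisons in the order above, beside -0.01, 0.01 and 0.01 over all genes with an adjusted p. Of the 12 cytohesin partners, 10 received an adjusted p, and 0, 1 and 0 were called in the same order, where 4.33%, 6.67% and 9.85% of all genes were called, with medians of -0.01, -0.13 and -0.12. Cytip, which binds cytohesins and sequesters Cyth1 in the cytoplasm, measured 196.0 ± 6.09 FPKM in Con, 184.8 ± 23.7 FPKM in Van and 174.3 ± 11.1 FPKM in VanLip. Itgb2, the integrin β2 chain whose tail Cyth1 binds, measured 482.5 ± 37.9, 496.1 ± 28.3 and 463.1 ± 30.5 FPKM in that order (SD, n = 3 each). Neither gene was called, with an adjusted p of 0.254 or above for Cytip and 0.463 or above for Itgb2 with DESeq2.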

How the data were processed

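Polyadenylated RNA of splenic monocytes was sequenced from stranded libraries, 3 each from Con, Van and VanLip mice. Per the labels and the methods of the study, the authors aligned paired reads to GRCm38 with HISAT2 2.2.1 and SAMtools 1.9, and estimated levels with StringTie 2.1.3. The authors deposited FPKM values and, in another table, expected counts per gene, which are not normalized. The annotation release is not given in the sources used here, and 99.0% of the 26108 detected genes matched GENCODE M21. The commonest low count, 1.33 or 2.00, corresponds to a read of 100 or 150 bases if tximport assumed 75 bases. Converted to fragments, depth was 16151327 to 23018836 in Con and Van and 42625870 to 46180125 in VanLip.

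Expected counts were rounded and tested with the Wald test of DESeq2 1.42.0 in R 4.3.3, with median-of-ratios size factors, group as the only term, all 9 libraries in 1 fit, independent filtering and Benjamini-Hochberg adjustment over all genes. Genes whose adjusted p was 0.05 or lower are termed called, and p-values are two-sided. The script was tested on simulated data. The genes and lists were chosen with earlier results of these data known. The genes named were the 9 members, the pathway genes called in a comparison (up to 20 with the lowest adjusted p) and the 5 genes most like Cyth1 by each of the measures of likeness. Cytip and Itgb2 were named outside this rule, after their values were seen. Alternatives were the quasi-likelihood test of edgeR 4.0.16, TMM library sizes, a filter of 10 counts in 3 libraries, a fit of the compared groups alone, the replicate number as a block, counts as fragments, VanLip fragments thinned to 20146290, limma 3.58.1 on quantile-normalized log2 FPKM with a pseudocount of 1 or 0.1 or with genes under a mean FPKM of 1 removed, and the omission of 1 library at a time.

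Marker lists of 10 cell types were used to examine the make-up of the libraries. In Con, Van and VanLip libraries in that order, the summed level was 164.1 to 180.9, 161.0 to 178.0 and 158.6 to 174.3 FPKM for plasma cell markers, 97.0 to 102.4, 92.5 to 109.5 and 92.3 to 117.6 FPKM for dendritic cell markers, and 1347 to 1638, 1596 to 2144 and 1357 to 1742 FPKM for red pulp macrophage markers. It was 20.0 to 24.5, 13.4 to 33.2 and 19.2 to 36.8 FPKM for neutrophil markers, 11.3 to 22.7, 10.1 to 13.5 and 5.42 to 12.7 FPKM for platelet markers, 12.8 to 17.3, 9.66 to 14.0 and 7.61 to 15.9 FPKM for T cell markers and 0.555 to 0.819, 0.336 to 0.733 and 0.319 to 0.615 FPKM for NK cell markers. Most of the plasma cell sum was Xbp1, at 114.8 to 139.6 FPKM over the libraries, and most of the dendritic cell sum was Bst2, at 54.5 to 88.3 FPKM. The B cell list is not reported here.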

Additional observations from a re-analysis of the deposited data

How the results depend on the processing

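The values of Cyth1 kept their direction under all alternatives, with log2 ranges of 0.54 to 0.60, -0.27 to -0.20 and -0.85 to -0.77 in the comparisons Van against Con, VanLip against Con and VanLip against Van. Cyth1 was chosen for its difference in these same libraries and its groups did not overlap, so that these ranges describe it and do not test it. Over the other 8 members, 431 of the alternative values kept direction and side of the threshold, 13 changed direction, 7 passed the threshold and 5 no longer did. Members called for Van against Con were 2 with only the 2 groups compared, and 0 to 2 when libraries were left out, with Cyth3 called without the first Van library, Cyth2 and Cyth3 without the first VanLip library (adjusted p of 0.0464 and 0.0326) and Cyth2 without the third VanLip library (adjusted p = 0.0202). For VanLip against Con leave-one-out gave 0 to 1. For VanLip against Van it also gave 0 to 1, and 0 members were called with edgeR and with each limma setting, where the adjusted p of Cyth3 was 0.175, 0.182 and 0.0795. Pathway genes called for Van against Con were 2 with edgeR, 1, 0 and 1 with limma on log2 (FPKM + 1), on log2 (FPKM + 0.1) and at a mean FPKM of at least 1, and 2 to 7 when libraries were left out. For VanLip against Con they were 0 with edgeR and with each limma setting, 1 with only the 2 groups compared, 2 with VanLip fragments thinned and 0 to 5 when libraries were left out, and for VanLip against Van they were 2 with edgeR, 2, 1 and 2 with limma and 3 to 7 when libraries were left out. Directions changed only for small values. Leaving out libraries moved Cyth4 for Van against Con between -0.022 and 0.098, and it was negative without Con replicate 1 or Van replicate 1. Arf1 for Van against Con moved between -0.035 and 0.021, and it was positive without the same libraries. Arf3 moved between -0.0052 and 0.093 for Van against Con (negative without Con replicate 2), between -0.019 and 0.080 for VanLip against Con (negative without Con replicate 2 or VanLip replicate 2) and between -0.051 and 0.0100 for VanLip against Van (positive without VanLip replicate 1). Arf3 for VanLip against Con was also -0.013 with limma at a pseudocount of 1, with or without the filter, and -0.014 at a pseudocount of 0.1, and for VanLip against Van it was 0.0091 with TMM library sizes. Arf6 moved between -0.047 and 0.085 for VanLip against Van, negative only without VanLip replicate 2. The cause of these changes was not tested. Replicate numbers did not pair the libraries, as the correlation of same-numbered libraries' deviations from their group means was -0.06 to 0.12. With a replicate block, 2 pathway genes were called for VanLip against Con, and the counts of members called were 0, 0 and 1.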
